A study of Mus musculus with 5 samples.

Results

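The Hox cluster genes were read on 5 Mouse Gene 1.0 ST arrays of whole pancreas from mice at postnatal day 1. Members were the probe sets whose platform annotation gives 1 symbol made of Hox, a cluster letter from a to d and a number. This rule gave 37 of the 19938 genes on the array, namely 10 Hoxa, 9 Hoxb, 9 Hoxc and 9 Hoxd genes with 1 probe set each. Hoxb8 is not among them, because its probe set is annotated to Hoxb8 and Hoxb7 together. The control group held 2 pancreata labelled as not recombined, and the alleles that these mice carried are not given in the labels. The Pdx1cKO group held 3 pancreata of Elastase-Cre;Pdx1loxP/loxP mice, and the series title places both groups in 1 litter. Elastase-Cre recombines in exocrine cells, so the surrounding mesenchyme, the endocrine cells and the proximal ducts keep an intact Pdx1 gene.

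Hox genes encode homeodomain transcription factors that lie side by side in 4 clusters. Genes with low paralog numbers are used from the head end of the body onwards and genes with high numbers only towards the tail, in the same order as on the chromosome. In visceral organs the transcripts come largely from mesenchyme, and the Hox6 paralogs of pancreatic mesenchyme are known to be needed for endocrine differentiation. Pdx1, the gene deleted here, is a ParaHox gene, from the sister cluster of the Hox genes. Because whole organs were used, fewer cells of a type and less RNA per cell cannot be told apart.

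The arrays differed in the medians of gene lists for tissues other than exocrine pancreas. Whether the amount of these tissues differed was not tested. In control 2 the stomach list had a median intensity of 954, against 48.7 in control 1 and 59 to 65.8 in the Pdx1cKO pancreata. The intestine list had a median of 189 there, against 34.5 to 56.9 on the other arrays. In each list 9 genes had a log2 fold change below 0 and 1 above 0. The genes above 0 were Cblif, at 45.2 and 123 in controls against 123, 123 and 189, and Fabp1, at 49.1 and 164 against 128, 306 and 106. The median of 9 liver genes was 218 and 279 in controls and 1126 to 3963 in Pdx1cKO pancreata, and that of 8 skeletal muscle genes was 52.5 and 51.4 against 93.7 to 632. Transcripts that define the tissue were present on every array, although the acinar median was 1130 and 535 in controls and 84.3 to 121 in Pdx1cKO pancreata. Pdx1 itself was at 67.9 and 113 in controls, against 48.4, 48.4 and 42.9 in Pdx1cKO mice 1, 2 and 3 (log2 fold change -0.91, standard error 0.255, limma adjusted p = 0.385). Endocrine cells keep the gene, so its level in whole pancreas is a weak check of the genotype. All 7 islet genes, Pdx1 among them, had every Pdx1cKO value below both controls (11.7% of all genes did), with a median log2 fold change of -0.881.

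Signal above background was found mainly in genes of low and middle paralog number. With no detection calls in the table, 1178 olfactory and vomeronasal receptor genes, which pancreas is not known to use, served as a guide to background, and their 95th percentile lay at an intensity of 35.5 to 38.4. Of the 37 Hox genes, 24 exceeded it on all 5 arrays, 6 on some and 7 on none, beside 71.2% of all genes that exceeded it on all 5. Among the 11 genes of paralog groups 1 to 4, 10 were above it on every array, as were 10 of the 10 genes of groups 5 to 8. In groups 9 to 13 only 4 of 16 were, namely Hoxa10, Hoxb9, Hoxd9 and Hoxd11. None of the 30 values of groups 12 and 13 reached it. Probe sets differ in affinity, so this is a guide to which genes could be read and not a ranking of transcript amounts.

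A stricter guide, the 99th percentile of the receptors (49.4 to 55.3), was passed on every array in the Hoxa and Hoxb clusters alone. It was exceeded on all 5 arrays by 10 Hox genes, of which 4 were Hoxa genes (Hoxa2, Hoxa4, Hoxa5 and Hoxa7), 6 were Hoxb genes (Hoxb1 to Hoxb5 and Hoxb7) and 0 were Hoxc or Hoxd genes. Of these 10, 6 belong to groups 1 to 4, 4 to groups 5 to 8 and 0 to groups 9 to 13. Over all genes 57.3% exceeded it on all 5 arrays. The number of Hox genes above the 95th percentile was 27 and 28 in controls and 28, 28 and 26 in Pdx1cKO pancreata, so the groups overlapped in this count. Above the 99th percentile it was 10 and 14 in controls and 14, 15 and 18 in Pdx1cKO pancreata, so no Pdx1cKO array was below a control and the groups met at 14. Over all genes the share above the 99th percentile was 59.1% and 63.1% in controls and 62.2%, 62.4% and 63.1% in Pdx1cKO pancreata, and the level itself was highest in control 1.

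**Figure D1:**
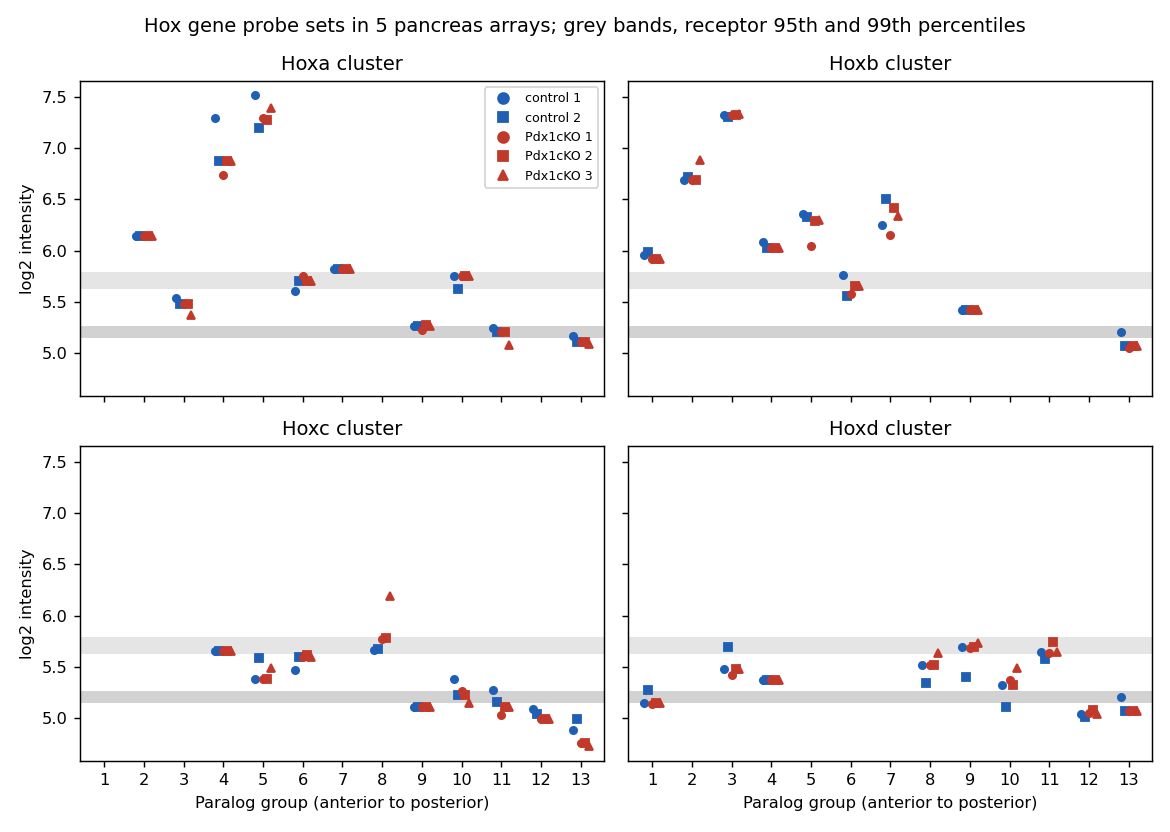
Log2 intensity of the 37 Hox genes by paralog group in each cluster, with 1 point per array (controls in blue, Pdx1cKO in red, a symbol for each replicate) and grey bands for the range over arrays of the receptor 95th (lower band) and 99th (upper band) percentiles. Hoxa4, Hoxa5, Hoxb2 and Hoxb3 reach farthest above the bands, Hoxc and Hoxd genes stay near them except Hoxc8 in Pdx1cKO mouse 3, and groups 12 and 13 lie within or below the lower band.

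The last gene above the guide level depended on the cluster, the array and the percentile. In the Hoxb cluster the last gene above the 95th percentile was Hoxb9 on each of the 5 arrays, and in the Hoxd cluster it was Hoxd11 on each. In the Hoxa cluster it was Hoxa10 in control 1 and Pdx1cKO mouse 3 and Hoxa11 on the other arrays. In the Hoxc cluster it was Hoxc11 in control 1, Hoxc10 in control 2 and Pdx1cKO mice 1 and 2, and Hoxc8 in Pdx1cKO mouse 3. The genes behind these shifts lay close to the guide level: Hoxa11, which is used in limb and kidney, was at 38 and 36.9 in controls, against 36.9, 36.9 and 33.7 in the Pdx1cKO mice. At the 99th percentile the last Hoxa gene was Hoxa7 in both controls and Hoxa10 on all 3 Pdx1cKO arrays, although Hoxa10 was at 54 in control 1 as on the Pdx1cKO arrays and the guide level there was 55.3. The last Hoxd gene at that level was none in control 1, Hoxd3 in control 2, Hoxd9 in Pdx1cKO mouse 1 and Hoxd11 in mice 2 and 3. The last Hoxb gene was Hoxb7 on every array, and the last Hoxc gene was Hoxc8 on every array but control 1, where none passed.

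The anterior genes with the clearest signal came from groups 2 to 4. Hoxa2, a patterning gene of the hindbrain and the branchial arches, was at 70.7 on each of the 5 arrays. Hoxa4 was at 157 and 117 in controls, against 107, 117 and 117 in Pdx1cKO mice 1, 2 and 3, with control 1 alone above the rest. Its log2 fold change of -0.25 (95% confidence interval -0.69 to 0.18, standard error 0.151, limma adjusted p = 0.515) was the most negative of the 37, and it was -0.04 without control 1 and -0.47 without control 2. Hoxb2, also a hindbrain gene, was at 103 and 105 in controls, against 103, 103 and 118 in the Pdx1cKO mice, with mouse 3 the highest. Hoxb3 was at 160 and 158 in controls, against 160, 160 and 161 in the Pdx1cKO mice, a span of 0.03 on the log2 scale. The remaining genes of groups 1 to 4 had lower probe set signal, which is no ranking of transcript amounts. Hoxb4, which acts in blood stem cells among other places, was at 67.7 and 65 in controls, against 65 on each Pdx1cKO array, and Hoxb1, a marker of the fourth rhombomere, was at 62 and 63.6 against 60.5, 60.5 and 60.5. Hoxa3, which is needed for the thymus and parathyroid, was at 46.5 and 44.5 against 44.5, 44.5 and 41.4. Hoxc4, whose transcripts overlap those of Hoxc5 and Hoxc6 so that their assignment is uncertain, was at 50.3 and 50.5 against 50.3 on each Pdx1cKO array, Hoxd4 was at 41.4 on every array, and Hoxd3 was at 44.6 and 51.9 against 42.7, 44.6 and 44.6. Hoxd3 was highest in control 2, and so was Hoxd1, the only anterior gene not above the guide level on every array, at 35.5 and 38.7 against 35.3, 35.5 and 35.5.

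Hoxa5 was the central gene that differed most between the controls. This gene, known for its part in lung and respiratory tract formation, was at 183 and 147 in controls, against 157, 155 and 168 in the Pdx1cKO mice, which all lay between the controls (log2 fold change -0.04, 95% confidence interval -0.37 to 0.29). Hoxb5 was at 81.8 and 80.3 in controls, against 66, 78.4 and 78.6 in the Pdx1cKO mice, with every Pdx1cKO value below both controls and mouse 1 the lowest. Its log2 fold change was -0.13 (standard error 0.0986, limma adjusted p = 0.524), and it was -0.05 without Pdx1cKO mouse 1. Hoxc5 was at 41.8 and 48.1 in controls, against 41.8, 41.8 and 45 in the Pdx1cKO mice. Hoxb7 was at 76.2 and 90.5 against 70.9, 85.5 and 80.9, so the groups overlapped over a wide span. Hoxa7 was at 56.6 on each array.

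The promoter of Hoxa5 shares a stretch with that of Hoxc4. RefSeq promoters of GRCm38.p6, read over the 250 bases before the start, were matched for 21 of the 37 members. The letters CCATAATGG, chosen after these sequences had been read and searched on both strands, stood in 2 of the 21 (9.52%). They stood in 34 of the 27025 RefSeq genes with a promoter (0.126%). Because the letters were picked from these Hox promoters, the difference between the shares followed from the choice and is no test of enrichment. The stretches are shown because these members alone of the 21 hold the match, in capitals, 159 bases before the start of Hoxa5 and 119 before that of Hoxc4. They lie at chr6:52204713-52204771 on the minus strand and at chr15:103034251-103034309 on the plus strand.
Hoxa5: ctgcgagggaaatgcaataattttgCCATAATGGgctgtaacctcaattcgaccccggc
Hoxc4: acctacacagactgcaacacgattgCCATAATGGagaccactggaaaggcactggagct
The 21 genes had a median of 13 CG dinucleotides in this window, against 6 over the RefSeq genes. Where a gene had several promoters, its highest count was taken. Further searches on both strands counted a gene with a match in any of its promoters. AGGTCA, a core sequence of retinoic acid receptors, stood in 6 of 21 (28.6%, RefSeq genes 15.8%). TTTATG, a Cdx-type core, stood in 4 (19%, RefSeq genes 12.4%). TGATTNAT, a joint Pbx and Hox sequence, stood in 2 (9.52%, RefSeq genes 3.31%). A match is only a run of letters and not a site in use.

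The Hox6 paralogs were above the receptor 95th percentile on every array. The 99th was passed by Hoxa6 on 4 arrays, Hoxb6 on 1 and Hoxc6 on 0, so their signal lay near background. Hoxa6 was at 48.6 and 52.1 in controls, against 53.8, 52.1 and 52.1 in the Pdx1cKO mice. Hoxb6 was at 54.1 and 47 against 47.7, 50.3 and 50.3, and Hoxc6 was at 44.4 and 48.5 against 48.5, 49 and 48.5. For each of these genes the groups overlapped, with control 1 the lowest array for Hoxa6 and Hoxc6 and the highest for Hoxb6. The log2 fold changes were 0.07 for Hoxa6 (95% confidence interval -0.05 to 0.18), -0.03 for Hoxb6 (-0.24 to 0.19) and 0.07 for Hoxc6 (-0.06 to 0.20). These intervals lie within 0.3 on the log2 scale, for signal near background and with tied values in each gene.

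Hoxc8 had the highest log2 fold change of the 37. This gene of thoracic segments was at 50.6 and 50.9 in controls, against 54.8, 55 and 73.3 in Pdx1cKO mice 1, 2 and 3, so every Pdx1cKO value lay above both controls and mouse 3 stood 0.42 above the next array on the log2 scale. The log2 fold change was 0.25 (95% confidence interval -0.22 to 0.72, standard error 0.163, limma adjusted p = 0.515), and 0.11 without Pdx1cKO mouse 3. Of 5 genes of neurons and Schwann cells, Elavl4 alone was highest in mouse 3, at 73.5 against 50.6 to 71.6, while Th was at 378 in mouse 1 and 260 in mouse 3 against 44.1 to 70.4 elsewhere. The part of such cells in the Hoxc8 value was not tested. The Hoxc genes on either side did not stand apart in mouse 3, with Hoxc6 at 48.5 and Hoxc9 at 34.4. Hoxc9 had this same value on every array and lay below the guide level on each, so it could not show a difference. The Hoxc6 value was equal to those of control 2 and Pdx1cKO mouse 1.

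Neighbouring Hoxd genes were lowest in control 2. Hoxd8 was at 45.8 and 40.7 in controls, against 45.8, 45.8 and 49.6 in the Pdx1cKO mice. Hoxd9 was at 51.9 and 42.2 against 51.4, 51.9 and 53.1, and Hoxd10 was at 39.9 and 34.5 against 41.4, 40 and 45. Control 2 was also the lowest array for Hoxd11, at 47.8 against 49.7 to 53.4 on the others, and for Hoxd12, at 32.3 against 32.9 to 33.9. Over all genes control 2 alone was lowest in 25.9%, and among the Hox genes in 9 of 37 (24.3%), a similar share. The 5 Hoxd genes in a row were singled out after their values were seen. In control 2 Hoxd10 and Hoxd12 lay below the guide level of 36.7. The log2 fold changes were 0.12, 0.16 and 0.18 for Hoxd8, Hoxd9 and Hoxd10, and 0.04, 0.01 and 0.08 without control 2. Control 2 had the highest medians of the stomach and intestine lists. Its median over 11 mesenchyme genes was 1967 against 2618 to 3025 on the other arrays. The part of these tissues in the Hoxd values was not tested.

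**Figure D2:**
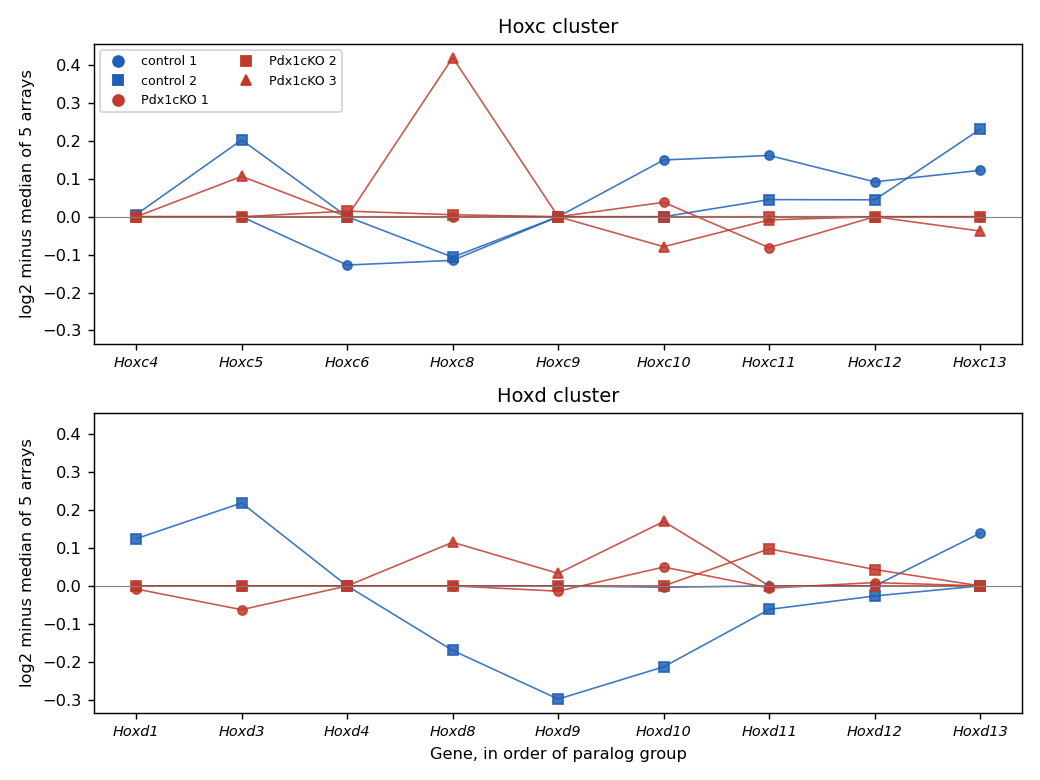
Log2 intensity of each Hoxc and Hoxd gene minus that gene's median over the 5 arrays, for every array (controls in blue, Pdx1cKO in red, a symbol for each replicate). Pdx1cKO mouse 3 stands apart at Hoxc8, control 2 falls below the other arrays from Hoxd8 to Hoxd12, and both controls lie above the Pdx1cKO arrays at Hoxc11 to Hoxc13.

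Posterior genes were dim, and in 3 of the 16, Hoxc11, Hoxc12 and Hoxc13, the Pdx1cKO group lay below control without overlap (all genes 11.7%). Hoxc13, known from hair follicles, was at 29.5 and 31.8 in controls, against 27.1, 27.1 and 26.4 in the Pdx1cKO mice, which put its log2 fold change at -0.19 (95% confidence interval -0.31 to -0.07, limma adjusted p = 0.309). Hoxc12 was at 34 and 32.9 against 31.9, 31.9 and 31.9 (-0.07), and Hoxc11 was at 38.7 and 35.7 against 32.7, 34.6 and 34.4 (-0.13). Each Pdx1cKO value of these 3 genes lay below both controls, but Hoxc12 and Hoxc13 were below the receptor guide level on all 5 arrays. The receptors used as the guide had values in the same direction, since every Pdx1cKO value lay below both controls in 16.3% of the 1178 and above both in 0.764%, with a median log2 fold change of -0.0236. Their 95th percentile was highest in control 1, the array that alone was highest for 13 of the 37 Hox genes, among them Hoxa11, Hoxa13, Hoxb13 and Hoxd13, against 27.5% of all genes and 37.4% of the receptors. Hoxa13, Hoxb13 and Hoxd13, which act in limb ends, prostate and hindgut, were at 33 to 37 on every array.

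The other posterior genes showed no separation of the groups except at Hoxd10. Hoxa10, known from the uterus and lumbar segments, was at 54 and 49.2 in controls, against 54 on each Pdx1cKO array. Hoxa9, which is used in blood progenitors, was at 38.3 and 38.3 against 37.4, 38.7 and 38.5, while the list of granulocytes and myeloid progenitors had medians of 48.3 and 48.9 in controls and 139 to 405 in Pdx1cKO mice. Hoxb9 was at 42.9 and Hoxc9 at 34.4 on every array, and Hoxc10 was at 41.6 and 37.5 against 38.5, 37.5 and 35.5. Hoxd11, which acts with Hoxa11 in the kidney, was at 49.9 and 47.8 against 49.7, 53.4 and 49.9, beside a kidney list median of 42.4 to 56.9 over the arrays.

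Across the 37 genes no difference between Pdx1cKO and control passed the test. Limma with Benjamini-Hochberg adjustment over all genes called 0 Hox genes lower and 0 higher, beside 0% and 0% of all genes, and 0 Hox genes were called by the methods' t-test after this adjustment. At an unadjusted limma p under 0.05, 3 were lower (Hoxb1, Hoxc12 and Hoxc13) and 0 higher, beside 5.04% and 5.29% of all genes, and the t-test gave the same number, 3. Every Pdx1cKO value lay below both controls in 5 Hox genes (Hoxb1, Hoxb5, Hoxc11, Hoxc12 and Hoxc13) and above both in 2 (Hoxc8 and Hoxd10), beside 11.7% and 12% of all genes. With median scaling these counts were 9 and 1, beside 19% and 11.1% of all genes, and with quantile normalization 8 and 6, beside 19.1% and 19.3%. Without control 1 limma called 4 Hox genes lower and 2 higher among 3387 genes of all (17%), and without control 2 it called 5 lower and 1 higher among 3067 (15.4%), where a spread is known for the Pdx1cKO arrays alone and is taken to hold for the single control. The genes were Hoxb1, Hoxc12, Hoxc13, Hoxd1, Hoxa10 and Hoxd9 in the former and Hoxb1, Hoxb4, Hoxb13, Hoxc12, Hoxd13 and Hoxc6 in the latter, with Hoxb1 and Hoxc12 in both.

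The measured differences in intensity were small throughout, but 13 of the 37 genes were not above the receptor 95th percentile on every array. For such dim genes a small difference in signal does not show that the transcript was unchanged. Log2 fold changes ran from -0.25 to 0.25, with 21 below 0, 11 above 0 and 5 at 0, and the median was -0.0288, against -0.00117 over all genes. By cluster the median was -0.0188 for Hoxa, -0.0299 for Hoxb, -0.0669 for Hoxc and 0.0306 for Hoxd. By position it was -0.0299 in groups 1 to 4, -0.0144 in groups 5 to 8 and -0.0188 in groups 9 to 13, but clusters differed in this. In Hoxc it was 0.0680 for groups 5 to 8 and -0.0885 for groups 9 to 13. In Hoxd it was -0.0659 for groups 1 to 4, 0.123 for Hoxd8, the only gene of groups 5 to 8, and 0.0621 for groups 9 to 13. By single paralog group the median ran from -0.0729 in group 13, with 4 genes, to 0.188 in group 8, with 2. The 95% confidence interval lay within 1 on the log2 scale, or a 2-fold difference, for all 37 Hox genes and for 90.6% of all genes, and within 0.5 for 35 of the 37, the exceptions being Hoxa4 and Hoxc8.

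A limit of these intervals is the number of exact ties. Hoxa2, Hoxa7, Hoxb9, Hoxc9 and Hoxd4 had the same value on all 5 arrays to within 1e-09 on the log2 scale, as did 4.05% of all genes, and 30 of the 37 held a tie between at least a pair of arrays, against 66% of all genes. How the deposited values came to be equal is not given in the sources used here, so equal values are no measure of the spread between mice. The p-values measure the spread between these samples of 1 litter.

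**Figure D3:**
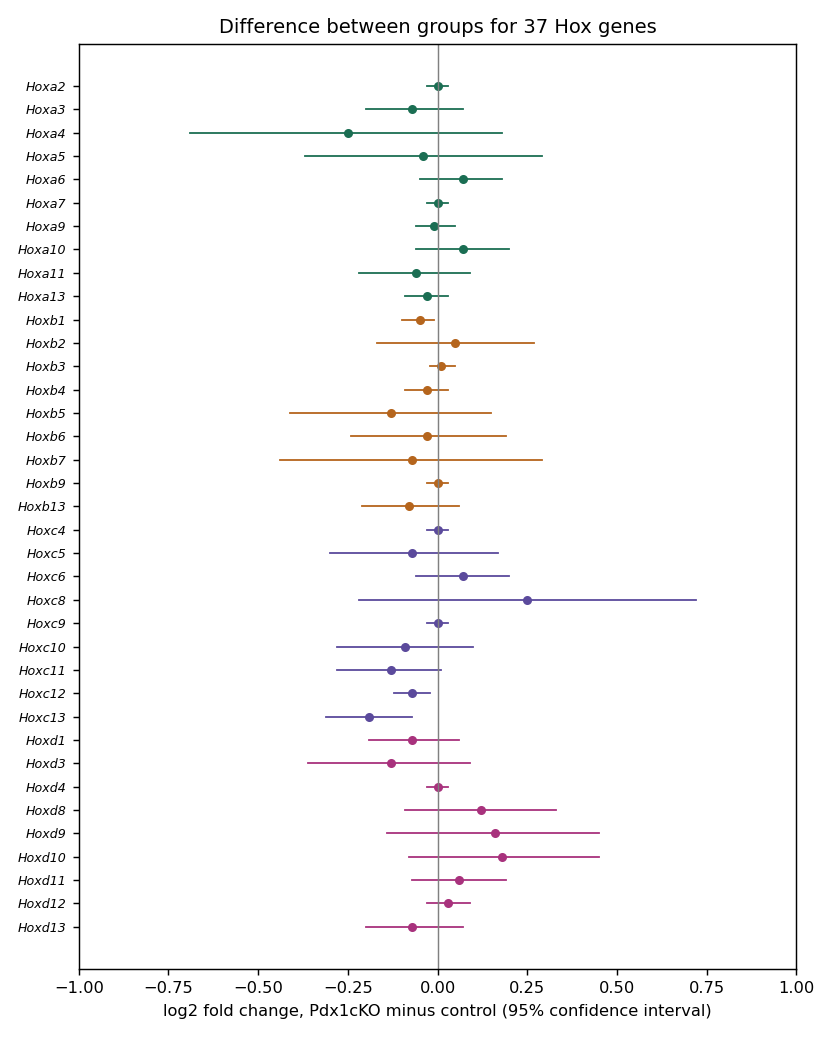
Log2 fold change of each Hox gene as points, for Pdx1cKO relative to control, with lines for the 95% limma confidence interval, coloured by cluster and ordered by paralog group within it. All points lie between -0.25 and 0.25 and all intervals within 1, with the widest at Hoxa4 and Hoxc8.

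The partners and regulators of the Hox genes also gave 0 calls over all genes in limma. The list of TALE cofactors, homeodomain proteins that bind DNA together with Hox proteins, had 8 measured members with a median log2 fold change of 0.0366. Pknox2 was at 48.6 and 46 in controls, against 52.3, 52.3 and 57.6 in the Pdx1cKO mice (log2 fold change 0.19, limma adjusted p = 0.442), Pknox1 was at 72.5 and 66.8 against 74.5, 74.5 and 85.6, and Meis2 was at 428 and 433 against 358, 332 and 423. Of the 8, groups did not overlap in 1 that was lower (Meis2) and 2 that were higher (Pknox1 and Pknox2), beside 11.7% and 12% of all genes. All 8 cofactors were above the receptor 95th percentile on all 5 arrays, among them Meis1 at 252 to 336 and Pbx3 at 221 to 292.

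Of 12 measured genes of the Cdx, retinoic acid and hindbrain inputs, 2 were higher at an unadjusted limma p and 0 lower (all genes 5.29% and 5.04%), with a median of -0.00576. They were Egr2, a hindbrain regulator, at 43.3 and 42.9 in the controls and 48 on each Pdx1cKO array, and Rarb, a retinoic acid receptor that is itself induced by retinoic acid, at 130 and 126 against 136, 139 and 143. Rara, its relative, was at 132 and 165 against 132, 126 and 132, with control 2 the highest. Among 15 Polycomb and trithorax genes, whose products keep Hox clusters silent or active, 1 was higher and 0 lower at an unadjusted p (all genes 5.29% and 5.04%), with a median of 0.0151. This was Ezh2, the histone methyltransferase of Polycomb complex 2, at 245 and 266 against 297, 333 and 303 (log2 fold change 0.28, limma adjusted p = 0.359). Cbx7 was at 107 and 81 against 74.6, 76.6 and 72.2, and Kmt2a was at 234 and 204 against 205, 193 and 191.

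Genes flanking the clusters, and the ParaHox genes other than Pdx1, had small differences too. Among 8 flanking genes the median was 0.0224. Smug1, beside Hoxc, was at 42.5 and 43.4 in controls, against 41.4, 41.5 and 41.5 in the Pdx1cKO mice, Skap2, beside Hoxa, was at 136 and 140 against 147, 147 and 153, and Mtx2, near Hoxd, was at 187 and 233 against 233, 249 and 244. The 6 ParaHox genes had a median of -0.0166. Gsx2 was at 37.2 and 34.9 against 34.9, 33.2 and 34.9, and Gsx1 was at 45.8 and 42.1 against 45.6 on each Pdx1cKO array. Within this family the log2 fold change of Pdx1 was -0.91 and the others lay between -0.07 and 0.06.

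Mesenchyme transcripts, from the cells in which visceral Hox genes are mainly used, had a median log2 fold change of 0.283 over 11 genes, with 3 higher and 0 lower at an unadjusted limma p (all genes 5.29% and 5.04%) and 0 called over all genes. Lum, a matrix proteoglycan, was at 589 and 586 against 901, 819 and 1043. Pdgfrb, a growth factor receptor of pericytes and fibroblasts, was at 226 and 177 against 360, 288 and 327, and Postn, a matrix protein, was at 2098 and 2047 against 2704, 2285 and 2498. Visceral mesenchyme factors, which mark regions along the gut in another way than the Hox genes, had a median of 0.0650 over 12 genes. Barx1, a factor of stomach mesenchyme, was at 291 and 242 in controls, against 207, 190 and 192 in the Pdx1cKO mice (log2 fold change -0.44, limma adjusted p = 0.319). Hand2 was at 160 and 177 against 218, 192 and 251, and Tlx1, a spleen factor, was at 51.5 and 49.3 against 68.2, 53.8 and 59.3. The Hox genes, at -0.0288, thus had a median nearer to that of all genes than the mesenchyme and visceral mesenchyme lists did. The medians of the input, regulator, flanking and ParaHox lists were nearer still, and that of the TALE cofactors was farther. Hox signal was low, with array medians of 45.8 to 48.5 against 1967 to 3025 for mesenchyme. A median near 0 thus does not show that Hox transcripts were unchanged. The difference between the lists was not tested.

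**Figure D4:**
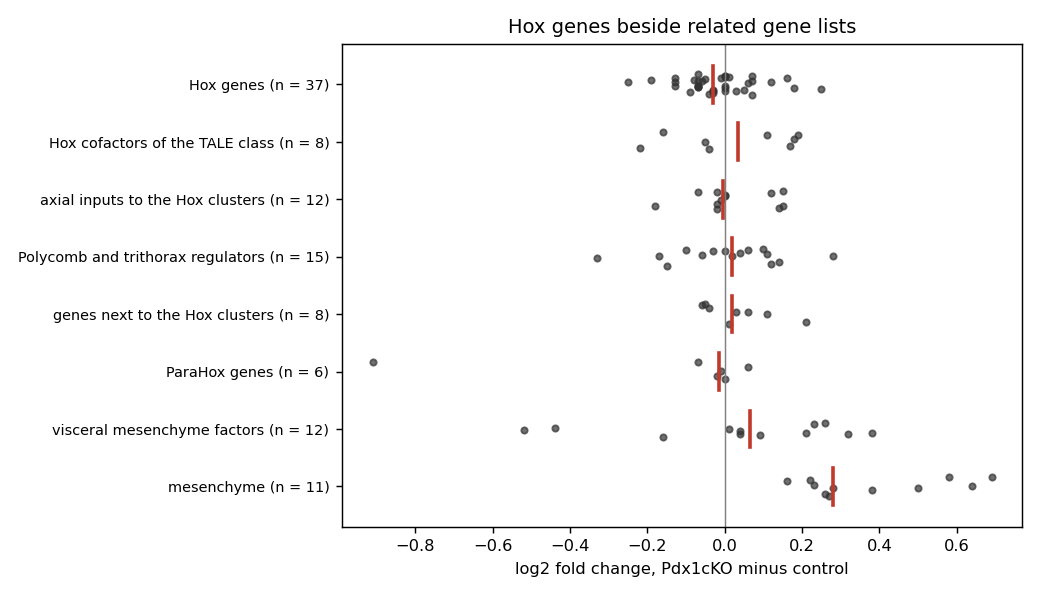
Log2 fold change, Pdx1cKO minus control, of each Hox gene and of each measured gene in related lists (points), with the median of each list (red bars). The Hox genes lie between -0.25 and 0.25, Pdx1 stands apart among the ParaHox genes at -0.91, and all 11 mesenchyme genes lie above 0.

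MicroRNAs lie between the Hox genes, and 6 of their precursor genes had a probe set, which were chosen after their values were seen. The mature sequences are shown because those of different clusters share a seed, bases 2 to 8 from the 5′ end, in capitals. They were taken from RefSeq on GRCm38.p6, at chr11:96317186-96317208 (plus strand, Hoxb cluster) for miR-10a, chr2:74726074-74726096 (plus, Hoxd) for miR-10b, chr11:96265187-96265208 (plus, Hoxb) and chr15:102973365-102973386 (plus, Hoxc) for miR-196a, and chr6:52230129-52230150 (minus, Hoxa) for miR-196b.
miR-10a-5p: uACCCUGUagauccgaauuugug
miR-10b-5p: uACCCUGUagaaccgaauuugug
miR-196a-5p: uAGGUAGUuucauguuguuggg
miR-196b-5p: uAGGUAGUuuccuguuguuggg
The miR-196 family is known to repress Hoxb8. Mir10a was at 22.8 and 23.2 in controls, against 22.8 on each Pdx1cKO array, and Mir10b was at 20.3 and 21.5 against 19.7, 19.4 and 21.2. Mir196a-1 was at 28.7 and 28.2 against 27, 27.8 and 25.9, Mir196a-2 was at 26.5 to 27.1, and Mir196b was at 35.8 in control 2 and 39.8 on the other 4 arrays. Mir615, beside Hoxc5, was at 103 and 93.5 in controls, against 102, 93.9 and 94.7 in the Pdx1cKO mice and was the only one of the 6 above the guide level on all 5 arrays. These probe sets are made for precursor genes on an array for long transcripts, and their values give no level of the mature microRNAs. The long noncoding Hottip, at the posterior end of Hoxa, was at 37.6 and 31.4 against 31.4, 31.4 and 31.1, and Hoxaas2 was at 52.2 to 54.6 on the 5 arrays.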

How the data were processed

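Total RNA of whole pancreas was hybridised by the authors to Mouse Gene 1.0 ST arrays and analysed with GeneSpring GX. The table deposited by the authors gives a linear intensity for each of 28853 probe sets, with array medians of 61 to 61.9. How background, normalization and probe summary were handled is not stated in the sources used here. Log2 was taken with no pseudocount. Names came from the platform annotation: 21789 probe sets have 1 symbol, 1621 several and 5443 are unnamed here, and probe sets of a gene were averaged into 19938 genes. Groups follow the sample titles. Pdx1cKO was compared with control in limma 3.58.1 (R 4.3.3; lmFit, eBayes, Benjamini-Hochberg over all genes, threshold 0.05, two-sided), which was tested on simulated data. Each array is 1 sample, and the number of arrays, 2 against 3, limits the precision. Reading and counting used pandas 2.3.3 in Python 3.11.15.

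The members and lists were chosen with earlier results of these data known, so no p was adjusted over a list alone and no set test was run. Named with every array's value were Hox genes above the guide level on all arrays, at an unadjusted p under 0.05, or with separated groups and a log2 fold change of at least 0.3 (which gave none), and the 3 genes with the smallest p in each list of cofactors, inputs, regulators, flanking genes, ParaHox genes and mesenchyme. Other genes were named after their values were seen. Lists of other tissues are given by medians and counts. Alternatives were median scaling, quantile normalization, genes above the median level, every probe set, trend and robust settings, the methods' t-test (Student), the replicate block, other guide percentiles and leaving out each sample.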

Additional observations from a re-analysis of the deposited data

How the results depend on the processing

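No alternative that kept all 5 arrays gave a Hox gene past the adjusted threshold in limma. The methods' t-test also gave 0, with 10 genes called over the whole array. Leaving out 1 sample at a time, Hox calls ranged from 0 to 5 lower and from 0 to 2 higher (1 to 9 and 0 to 3 at an unadjusted p), with calls only without control 1 or control 2. Hox genes with separated groups numbered 9 lower and 1 higher with median scaling and 8 and 6 with quantile normalization, and ranged from 5 to 15 and from 2 to 10 with a sample left out. Over all genes the shares were 19% and 11.1%, 19.1% and 19.3%, and 13.2% to 33.3% and 14% to 31.1%. The median log2 fold change ranged from -0.0321 to -0.00266 for Hoxa and from -0.0412 to 0 for Hoxb with a sample left out. Among genes above the median level, which only 6 Hox genes were, it was -0.146 for Hoxa, 0.162 for the flanking genes and 0.918 for neurons and Schwann cells. Hox genes above background on all arrays numbered 10 at the receptor 99th percentile and 37 at the 75th. The last such paralog was 7 and 13 for Hoxa, 7 and 13 for Hoxb, and 13 at the 75th for Hoxc and for Hoxd, where no gene passed the 99th.

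The sign turned for Hoxa9 (0.01) and Hoxb3 (-0.03) with quantile normalization and for Hoxb2 (-0.01) in the replicate block. With a sample left out the ranges were -0.20 to 0.12 for Hoxa5, -0.01 to 0.01 for Hoxa9, -0.01 to 0.08 for Hoxb2, -0.13 to 0.07 for Hoxb6, -0.20 to 0.05 for Hoxb7 and -0.17 to 0.04 for Hoxc5. The list medians ranged from 0.00932 to 0.0239 for flanking genes, -0.941 to -0.547 for islet, 0.125 to 0.621 for mesenchyme, -3.77 to -0.0363 for stomach, -2.17 to 0.054 for intestine and -0.186 to -0.0777 for kidney. Adjusted limma calls in the lists arose only without control 1 or control 2. There a single control remains and the spread comes from the Pdx1cKO arrays alone, so these calls are not read as results of a list. The causes were not tested.

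Replicate numbers are shared by 2 pairs of samples, whose deviations from the group mean correlated at 0.03 and 0.00. With 2 controls these deviations mirror each other, so the correlations cannot tell whether the numbers mark pairs. The replicate block over these 4 arrays called 0 Hox genes (1 at an unadjusted p, Hoxc8), with a median of -0.0216. Signal over background limits the posterior genes: 13 of the 37 were not above the receptor guide level on every array.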
